A study of Mus musculus with 13 samples.

Results

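The genes of cholesterol synthesis, uptake and export were measured in mouse brain by RNA sequencing, as 35 named genes that each reached a mean of 1 FPKM over all libraries, out of 13905 such genes among 37636 in the table. All 35 listed genes passed that level, the lowest being Soat1 at 2.298 FPKM, and each symbol matched 1 row of the table. FPKM is a number of fragments scaled to the length of the gene and to the mapped total, so levels can be compared between genes. The genes were sorted by known role into 19 of synthesis (8 of the mevalonate arm, 11 from squalene to cholesterol), 6 of regulation, 5 of uptake and transport within the cell, and 5 of storage, turnover and export. All mice were male Balb/c of 6 to 8 weeks. The 6-OHG group (4 libraries) was kept at 8000 m for 24 h and received 6-OHG, the Mod group (5 libraries) had the same exposure without 6-OHG, and the Con group (4 libraries) was kept in the normal condition, also without 6-OHG. The labels give no dose or structure for 6-OHG, no brain region, and no account of how the altitude was made. Nor do they say whether each replicate is an animal of its own; if not, the spread behind each p-value may be technical.

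The blood-brain barrier keeps lipoprotein cholesterol of the blood out of the brain, which therefore makes its own. The mevalonate arm builds isoprenoid units from acetyl-CoA, squalene is joined from these, and squalene is then oxidised, closed into the sterol ring system and trimmed to cholesterol, with several of the late steps using molecular oxygen. SREBP2, encoded by Srebf2, switches these genes on when membrane cholesterol is low, and INSIG proteins hold it back when cholesterol is plentiful. Astrocytes and oligodendrocytes are main producers, APOE particles carry cholesterol between cells, the transporters ABCA1 and ABCG1 load it for export under control of the liver X receptors (LXR), and neurons dispose of it as 24-hydroxycholesterol through CYP46A1.

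Promoter sequence of these genes is shown because the synthesis genes are known to share a control by SREBP2 together with the factor NF-Y. RefSeq windows on GRCm38.p6, from 250 bases before to 50 after the start of transcription, matched 29 of the 35 genes. Those not matched were Fdps, Fdft1, Sqle, Npc1, Stard4 and Abcg1. The letters were searched on both strands. They were TCACNCCAC for the sterol regulatory element (SRE), CCAAT for the NF-Y box and ACGTG for the hypoxia response core. For LXR only a perfect direct repeat was searched, and imperfect forms of it were not. The bases just before the start are printed 5′ to 3′ on the strand of the gene, with every match in capitals. Hmgcs1 (chr13:119690151-119690350, plus strand), Mvd (chr8:122443423-122443572, minus), Idi1 (chr13:8885456-8885605, plus), Cyp51 (chr5:4104698-4104847, minus) and Msmo1 (chr8:64733579-64733778, minus) stand for enzyme genes that were lower in Mod, and Srebf2 (chr15:82147069-82147268, plus) for their regulator. Lss (chr10:76531455-76531604, plus) and Acat2 (chr17:12960726-12960875, minus) are enzyme genes whose levels in Mod did not pass the test, and Abca1 (chr4:53159896-53160095, minus) is the exporter that was higher.
Hmgcs1: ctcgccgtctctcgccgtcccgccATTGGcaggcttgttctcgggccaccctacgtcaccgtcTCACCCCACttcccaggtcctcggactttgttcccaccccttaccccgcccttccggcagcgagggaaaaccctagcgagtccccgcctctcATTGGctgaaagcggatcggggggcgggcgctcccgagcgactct
Mvd: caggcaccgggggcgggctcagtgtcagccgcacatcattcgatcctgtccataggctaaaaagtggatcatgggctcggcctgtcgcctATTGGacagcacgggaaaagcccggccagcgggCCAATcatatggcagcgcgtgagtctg
Idi1: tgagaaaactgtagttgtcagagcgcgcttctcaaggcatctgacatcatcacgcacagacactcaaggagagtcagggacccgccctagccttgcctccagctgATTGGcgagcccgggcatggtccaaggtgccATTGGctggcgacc
Cyp51: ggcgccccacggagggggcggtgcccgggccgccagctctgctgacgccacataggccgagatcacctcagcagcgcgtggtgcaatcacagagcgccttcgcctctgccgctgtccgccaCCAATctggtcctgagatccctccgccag
Msmo1: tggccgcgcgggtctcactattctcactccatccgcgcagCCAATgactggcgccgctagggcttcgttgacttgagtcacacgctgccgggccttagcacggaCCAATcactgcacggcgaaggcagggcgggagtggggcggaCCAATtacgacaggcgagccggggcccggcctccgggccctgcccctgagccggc
Srebf2: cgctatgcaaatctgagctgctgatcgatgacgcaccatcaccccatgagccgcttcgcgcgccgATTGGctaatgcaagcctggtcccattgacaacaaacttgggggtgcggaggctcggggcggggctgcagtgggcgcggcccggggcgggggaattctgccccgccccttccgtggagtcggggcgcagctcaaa
Lss: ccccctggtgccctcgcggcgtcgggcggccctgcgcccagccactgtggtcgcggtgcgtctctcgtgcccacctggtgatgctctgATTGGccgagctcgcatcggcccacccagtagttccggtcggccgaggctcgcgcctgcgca
Acat2: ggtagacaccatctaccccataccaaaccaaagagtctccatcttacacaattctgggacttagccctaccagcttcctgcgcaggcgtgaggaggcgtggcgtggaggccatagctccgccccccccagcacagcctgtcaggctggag
Abca1: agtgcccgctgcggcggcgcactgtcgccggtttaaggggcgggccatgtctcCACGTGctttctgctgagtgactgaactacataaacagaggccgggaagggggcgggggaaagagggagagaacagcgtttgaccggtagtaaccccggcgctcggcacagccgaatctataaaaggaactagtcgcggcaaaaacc

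The Hmgcs1 promoter alone among the 29 held the SRE letters, as TCACCCCAC on the gene's strand, beginning 137 bases before the start. These letters were in 1.44% of all 27025 genes with a window. The NF-Y letters, which read ATTGG where the box lies on the other strand, were in the windows of 15 of the 16 synthesis genes matched, or 93.75%, and of 23 of the 29 genes in all, against 41.06% of all genes. Acat2 was the synthesis gene without them. It was in 12 of 12 windows of enzymes that fell in Mod and in 3 of 4 of those that did not fall. A box present in nearly all of these windows could not divide the enzymes by their change. The hypoxia letters were in 7 of the 29, or 24.14%, against 21.78% of all genes, and the Abca1 window held them on both strands in the overlapping letters CACGTG. The perfect LXR repeat was in 0 of the 29 and in 0.01% of all genes, which says nothing of imperfect LXR elements. A match describes the letters only, and a window without one says only that the letters are not in it.

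Libraries of a group were close to each other, with correlations across genes of 0.957 to 0.989 within groups on log2(FPKM + 1). The FPKM columns summed to between 268208 and 312908, of which genes of the mitochondrial genome took 20.6% to 28.7%. Depth is unknown here, since no totals of reads are stated, and no counting interval can be set on a level. The 10 neuron markers summed to 855 to 970 FPKM in 6-OHG, 835 to 916 in Mod and 929 to 1006 in Con, and those of astrocytes, oligodendrocytes, microglia and endothelium were also above 0 in every library. Libraries stood apart in 3 respects. Con replicate 4 and 6-OHG replicate 2 correlated least with their own groups (mean r 0.969 and 0.963). The 7 choroid plexus markers ranged from 4.61 FPKM in 6-OHG replicate 2 to 697 in Con replicate 2. The 14 liver transcripts summed to 0.767 to 1.29 FPKM in 6-OHG, to 0.414 to 1.19 in 4 Mod libraries but 37.3 in Mod replicate 3, and to 39.5 to 56.6 in Con, where albumin (Alb) alone gave 14.3 to 18.9 FPKM. Of the liver list 12 of 14 genes were at 0 in at least 1 library. In such tissue, fewer cells of a type and less RNA per cell cannot be told apart.

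Exposure to altitude, Mod against Con, came with lower messenger RNA of most synthesis enzymes and of their regulator Srebf2, and with higher messenger RNA of the exporters Abca1 and Abcg1. Of the 19 synthesis genes 14 fell and 1 rose, of the 6 of regulation 1 fell, of the 5 of uptake and transport 2 fell, and of the 5 of storage, turnover and export 2 rose and 0 fell. A gene is said to rise or fall where its adjusted p was under 0.05 in limma, fitted over all 13905 genes on log2(FPKM + 1). Folds of genes with few FPKM are compressed on that scale. Over all 35 genes 17 fell and 3 rose, with a median log2 change of -0.28, while 9.81% of all genes tested fell and 14% rose (23.8% together), with a median of 0.01. The median was -0.46 for the mevalonate arm, -0.50 from squalene to cholesterol, -0.11 for regulation, -0.27 for uptake and transport, and 0.15 for storage, turnover and export. The 19 synthesis genes summed to 151 to 189 FPKM in the Mod libraries and 236 to 275 FPKM in the Con libraries, a mean lower by 33% (ratio 0.67).

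**Figure D1:**
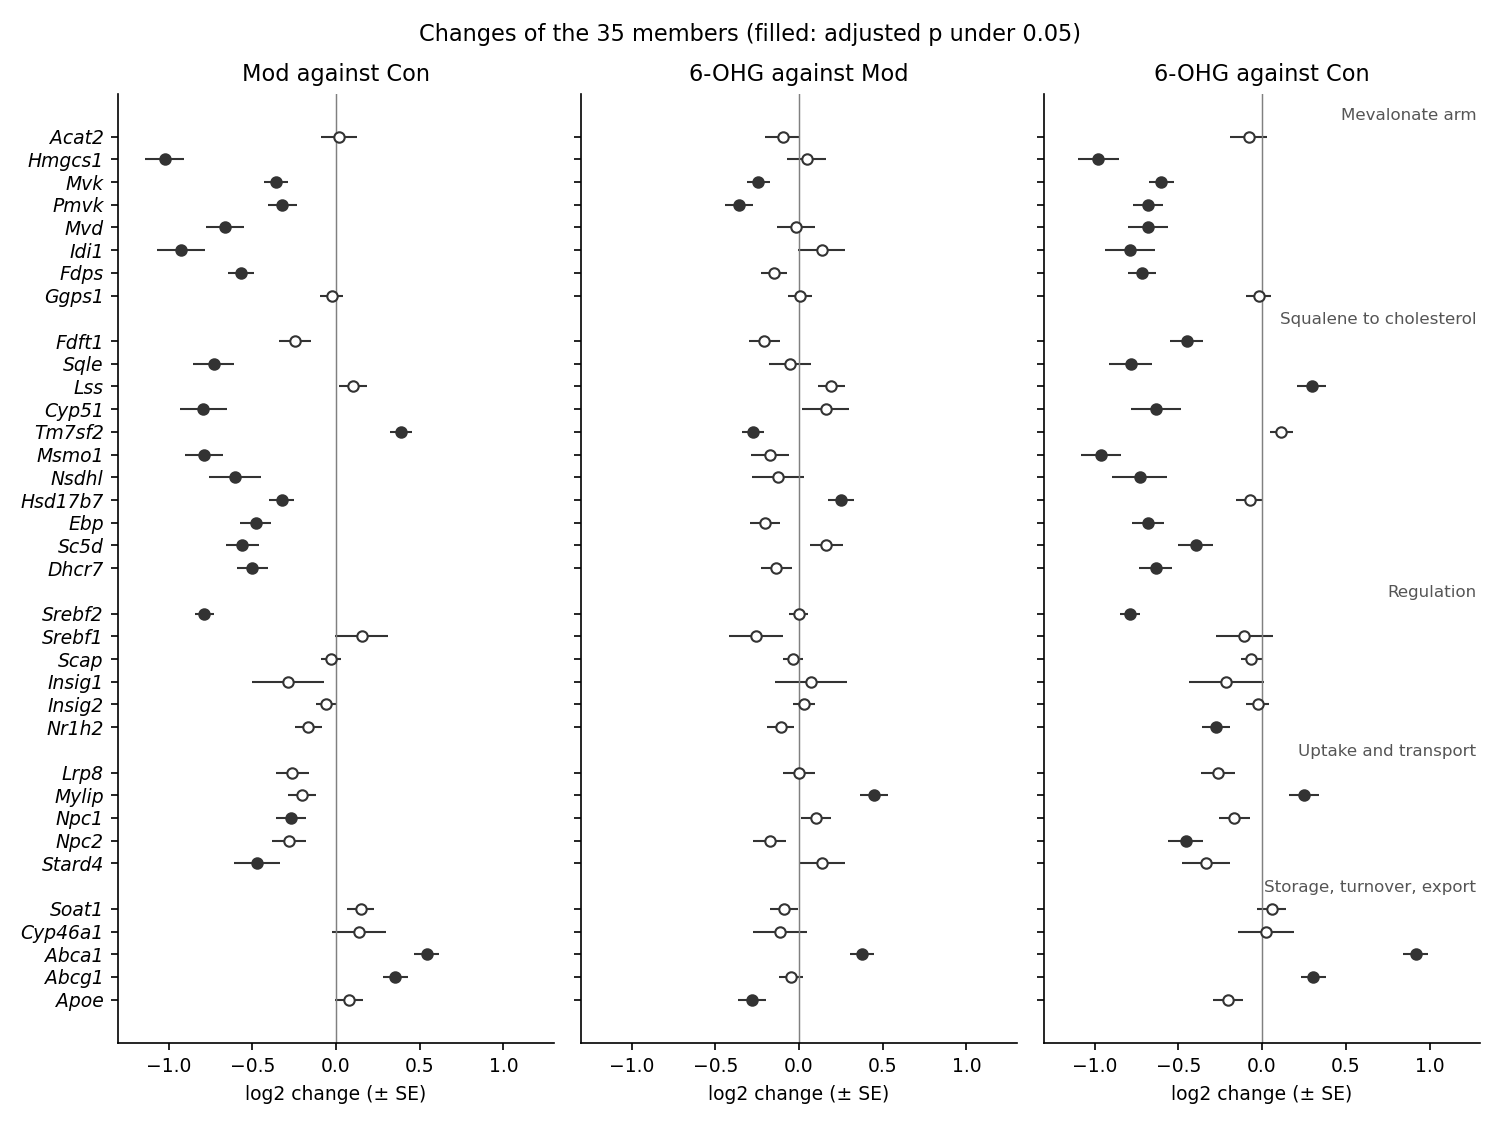
Log2 changes (x axes, differences of group means of log2(FPKM + 1), bars ± SE) of the 35 genes (y axis, by role) in 3 panels, 1 per comparison. Filled points passed an adjusted p of 0.05; most synthesis genes and Srebf2 lie left of 0 in both comparisons with Con, and Abca1 lies right of 0 in all 3.

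Srebf2 (ENSMUSG00000022463), the gene of the transcription factor that drives the pathway, lies on chromosome 15 from 82147181 to 82205379 on GRCm38, and its promoter is the one shown above with a single NF-Y box. It stood at 14.7, 13.97, 15.1, 13.7 and 13.6 FPKM in the Mod libraries, against 25, 27.9, 23.7 and 24.6 FPKM in Con. Every Mod library was below every Con library by a wide margin, and the spread within each group was small (14.2 ± 0.654 and 25.3 ± 1.82 FPKM, mean ± SD, n = 5 and 4; log2 change -0.79, SE 0.06, adjusted p = 2.26e-06). Its p was the smallest of the 35 genes.

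In the mevalonate arm all 6 genes listed from Hmgcs1 to Fdps fell. Hmgcs1 (ENSMUSG00000093930, chromosome 13 from 119690379 to 119708260), whose enzyme condenses acetyl units into HMG-CoA, had 30, 24.97, 25.3, 24.3 and 32.5 FPKM in Mod and 55.8, 55.8, 55.7 and 58.3 FPKM in Con. The Con libraries lay within 3 FPKM of each other and all Mod libraries were far below them (log2 change -1.02, SE 0.12, adjusted p = 7.88e-05). Idi1, which interconverts the isoprenoid building blocks, had 7.64, 5.50, 6.63, 6.004 and 7.92 FPKM in Mod and 12.8, 13.2, 12.8 and 15.9 FPKM in Con. Its groups did not overlap either, and its Mod mean was 0.494 of the Con mean (log2 change -0.92, SE 0.14, adjusted p = 0.000659). Fdps, which makes farnesyl diphosphate, had 7.07, 6.65, 6.76, 6.62 and 7.41 FPKM in Mod and 10.7, 10.05, 10.2 and 11.9 FPKM in Con (log2 change -0.57, SE 0.08, adjusted p = 0.000337). Mvd, the decarboxylase of the arm, fell by 0.66 on the log2 scale, and the kinase genes Mvk and Pmvk fell by 0.36 and 0.32. Both ends of the arm behaved otherwise: Acat2, a cytosolic thiolase, averaged 17.3 ± 1.19 FPKM in Mod and 17.2 ± 3.02 FPKM in Con (log2 change 0.02, SE 0.11, adjusted p = 0.928), and Ggps1, which makes geranylgeranyl diphosphate for protein prenylation rather than sterols, 9.47 ± 0.509 and 9.69 ± 0.970 FPKM (log2 change -0.03, SE 0.07, adjusted p = 0.827).

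From squalene to cholesterol 8 of 11 genes fell in Mod, 1 rose and 2 did not pass the test. Sqle, squalene epoxidase, had 7.37, 5.44, 6.12, 6.19 and 8.36 FPKM in Mod and 12, 10.2, 11.05 and 13.7 FPKM in Con (log2 change -0.73, SE 0.12, adjusted p = 0.00124). Msmo1, which removes methyl groups from the sterol ring, had 7.68, 7.03, 7.73, 6.92 and 9.27 FPKM in Mod and 12.8, 13.95, 13.2 and 16.4 FPKM in Con (log2 change -0.79, SE 0.12, adjusted p = 0.000487). For both genes every Mod library was below every Con library. Cyp51, the lanosterol demethylase, fell by 0.79, and Nsdhl and Hsd17b7, which act with MSMO1 in removing methyl groups, by 0.60 and 0.32 on the log2 scale. Ebp, a sterol isomerase, fell by 0.48, Sc5d, a sterol desaturase, by 0.56, and Dhcr7, the reductase that turns 7-dehydrocholesterol into cholesterol, by 0.50. The 4 enzymes known to use molecular oxygen, SQLE, CYP51, MSMO1 and SC5D, all belong to the genes that fell. Their changes ran from -0.79 to -0.56, with a median of -0.76. The other 15 synthesis genes ran from -1.02 to 0.39, with a median of -0.36, and of these 10 fell and 1 rose. Whether oxygen use had a part in this was not tested.

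Tm7sf2, one of the genes whose product reduces the sterol C14 double bond, went the other way. It had 5.48, 4.703, 4.93, 4.32 and 5.64 FPKM in Mod and 3.57, 3.802, 3.55 and 3.42 FPKM in Con (log2 change 0.39, SE 0.07, adjusted p = 0.00134). All Mod libraries were above all Con libraries. Its annotated exons share 532 bases (12.08% of their length) with those of Vps51 on the same strand, and how reads in that stretch were assigned is not stated in the sources used here. Lss, lanosterol synthase, averaged 4.57 ± 0.322 FPKM in Mod and 4.199 ± 0.533 FPKM in Con (log2 change 0.10, SE 0.08, adjusted p = 0.401). Fdft1, squalene synthase, averaged 16.2 ± 0.919 FPKM in Mod and 19.4 ± 2.28 FPKM in Con (log2 change -0.24, SE 0.09, adjusted p = 0.0776), and its exons share 774 bases with Ctsb on the opposite strand, whose level was 77.6 FPKM over all libraries. The Mod libraries of Fdft1 all lay below the Con libraries, which brings the genes of synthesis with no overlap to 15 lower and 1 higher, against 8.87% lower and 13.5% higher among all genes.

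**Figure D2:**
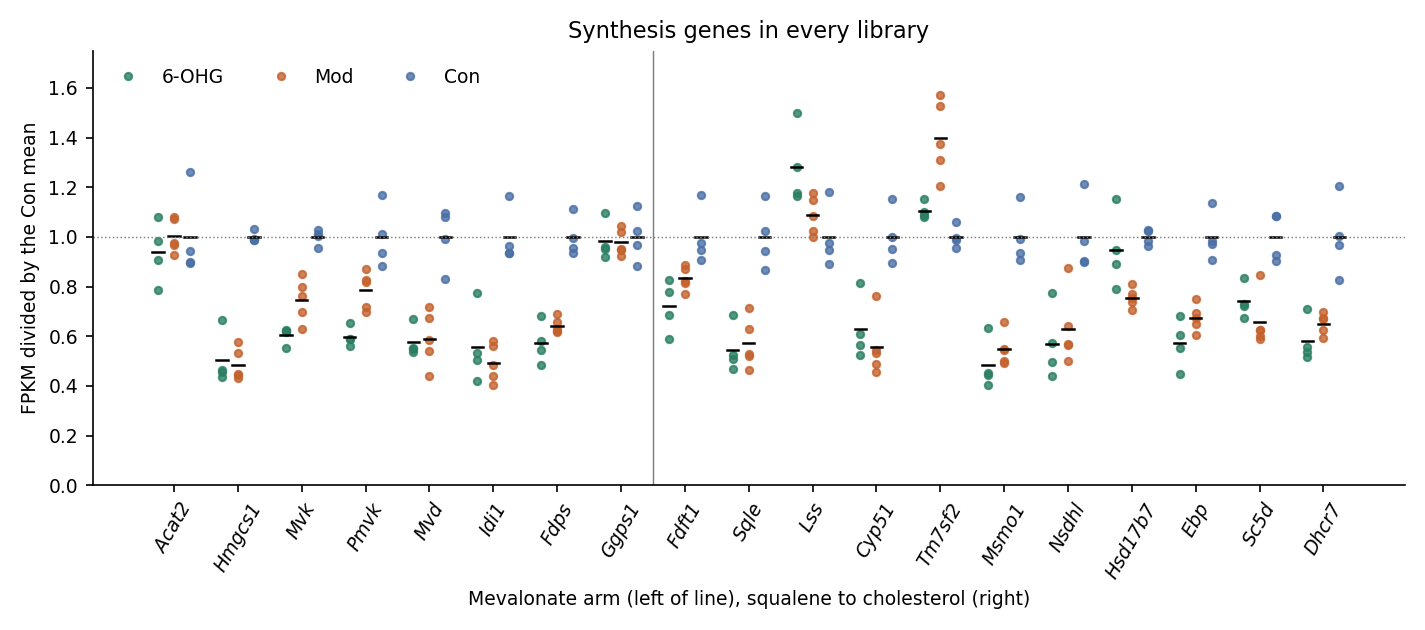
FPKM of each of the 19 synthesis genes divided by its Con mean (y axis, linear) in every 6-OHG, Mod and Con library (points, from left to right for each gene; black bars are group means). The exposed groups sit below 1 for most genes, while Acat2 and Ggps1 sit near 1 and Lss and Tm7sf2 at or above it.

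Among the regulators other than Srebf2 none of the remaining 5 passed the test in Mod against Con (1 of the 6 had an unadjusted p under 0.05, Srebf2 itself). Insig1, a feedback inhibitor and itself a known SREBP target, was chosen for description after its values were seen. It had 13.6, 10.7, 12.7, 11.1 and 15.2 FPKM in Mod and 14.04, 14.1, 12.7 and 22.7 FPKM in Con, overlapping groups with Con replicate 4 far above the other Con libraries (log2 change -0.28, SE 0.21, adjusted p = 0.369). Without Con replicate 4 the change was -0.11 (adjusted p = 0.731). Insig2, the second inhibitor, averaged 12.5 ± 0.484 and 13.03 ± 1.03 FPKM in Mod and Con, and Scap, which escorts SREBPs to the Golgi, 9.41 ± 0.786 and 9.61 ± 0.450 FPKM. Srebf1, whose product favours fatty acid genes and is an LXR target, averaged 8.38 ± 1.16 FPKM in Mod and 7.55 ± 1.99 FPKM in Con (log2 change 0.15, SE 0.16, adjusted p = 0.533), and Nr1h2, the gene of LXR beta, 8.204 ± 0.608 and 9.34 ± 1.15 FPKM (log2 change -0.16, SE 0.08, adjusted p = 0.154).

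Genes of uptake and transport had negative changes in 5 of 5 cases, of which 2 passed the test. Among the 5 is Mylip (log2 change -0.20, SE 0.08, adjusted p = 0.0993 in limma). Its product removes lipoprotein receptors, so the shared sign does not stand for less uptake. Stard4, a carrier of cholesterol through the cytosol, had 5.02, 3.68, 4.17, 4.396 and 5.49 FPKM in Mod and 6.55, 6.06, 5.88 and 8.34 FPKM in Con (log2 change -0.47, SE 0.14, adjusted p = 0.0251). Npc1, which moves cholesterol out of lysosomes, had 4.57, 4.32, 5.09, 4.59 and 5.498 FPKM in Mod and 5.55, 5.78, 5.39 and 7.36 FPKM in Con (log2 change -0.27, SE 0.09, adjusted p = 0.0459). Stard4 did not overlap between groups, whereas the highest Mod library of Npc1 passed the lowest Con library. Both calls were weak: Npc1 lost its call without Con replicate 1, 2 or 4, Mod replicate 1, 2, 3 or 4, or 6-OHG replicate 1 or 4 (adjusted p up to 0.114, the last with a change of -0.18 without Con replicate 4), and Stard4 without Con replicate 1 or 4 or Mod replicate 2 or 3 (up to 0.0657). The partner gene Npc2 averaged 8.11 ± 0.757 and 10.1 ± 1.42 FPKM in Mod and Con (adjusted p = 0.0599 in limma). Lrp8, a lipoprotein receptor that also receives reelin signals, averaged 5.002 ± 0.397 and 6.22 ± 0.842 FPKM (adjusted p = 0.0682 in limma), and fell by 0.35 without Con replicate 4 (adjusted p = 0.0134), the lowest Con library at 4.97 FPKM.

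The exporter genes Abca1 and Abcg1 were higher in Mod. Abca1 (ENSMUSG00000015243, chromosome 4 from 53030787 to 53159895), which loads cholesterol onto apolipoproteins, had 6.51, 5.63, 6.33, 6.87 and 5.68 FPKM in Mod and 4.08, 3.86, 3.57 and 4.28 FPKM in Con. The groups did not overlap, and the Mod mean was 1.57 times the Con mean (log2 change 0.54, SE 0.07, adjusted p = 0.000262). Abcg1, which passes cholesterol to lipid-rich particles, had 9.705, 9.82, 11.5, 10.9 and 9.38 FPKM in Mod and 8.28, 7.58, 7.79 and 7.52 FPKM in Con, again without overlap (log2 change 0.35, SE 0.07, adjusted p = 0.00401). Apoe, the most abundant of the 35 genes, averaged 389.6 ± 22.3 FPKM in Mod and 369 ± 32.1 FPKM in Con (log2 change 0.08, SE 0.08, adjusted p = 0.537). Cyp46a1, the neuronal 24-hydroxylase, averaged 50.6 ± 6.94 and 46.2 ± 9.06 FPKM, and Soat1, which esterifies cholesterol for storage, 2.47 ± 0.261 and 2.13 ± 0.320 FPKM; neither passed the test (adjusted p = 0.577 and 0.215 in limma).

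**Figure D3:**
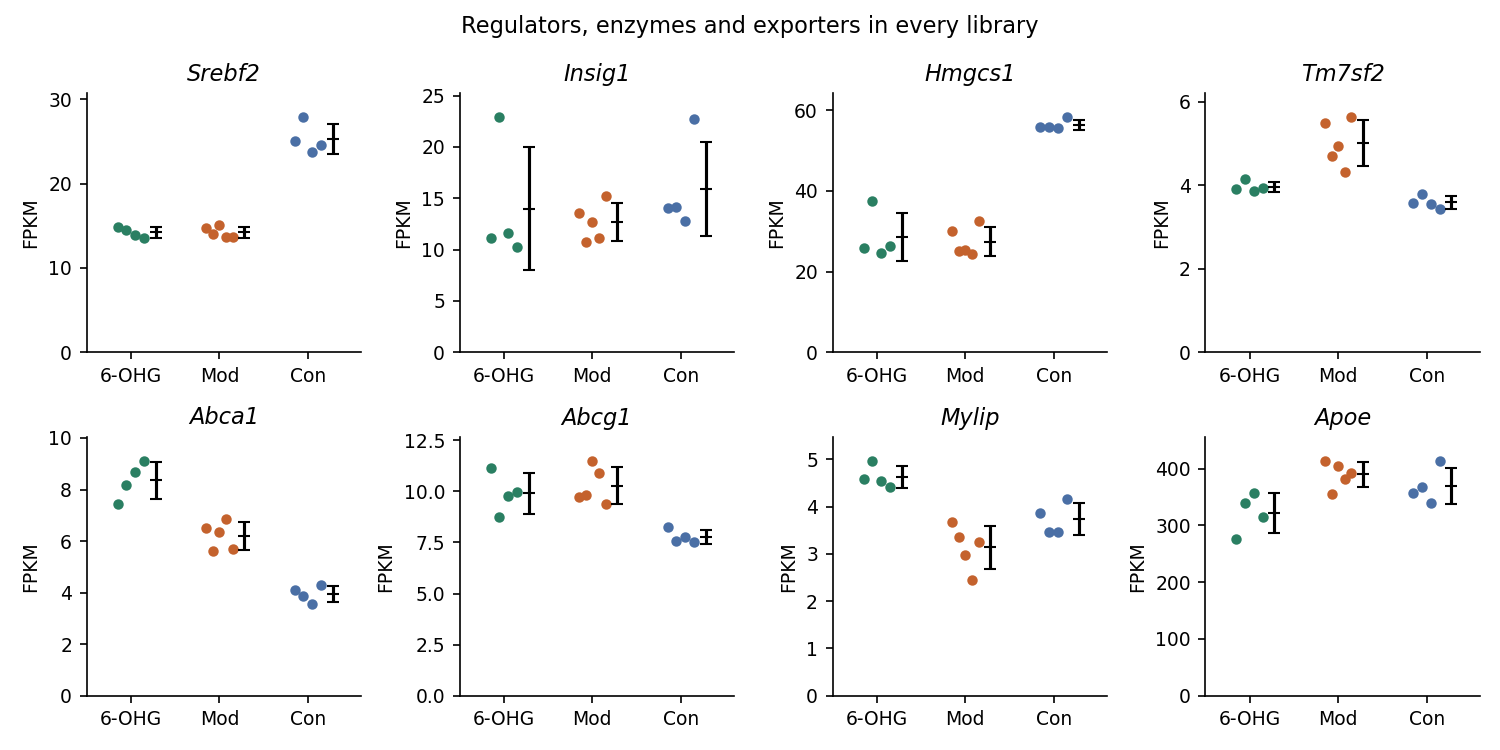
FPKM (y axes, from 0) of 8 genes in every library of the 6-OHG, Mod and Con groups (coloured points), with the group mean ± SD in black. Srebf2 and Hmgcs1 are low in both exposed groups, Insig1 has 1 high library in 6-OHG and 1 in Con, and Abca1 is lowest in Con and highest in 6-OHG.

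Markers of other cells moved with part of these groups, and their part in the results was not tested. The 13 oligodendrocyte markers summed to 947 to 2168 FPKM in Mod and 1383 to 1849 in Con, with 2 of 13 lower and 0 higher, and the 8 precursor markers to 75.1 to 139 and 128 to 173, with 3 of 8 lower and 0 higher. The 10 astrocyte markers summed to 477 to 569 FPKM in Mod and 472 to 574 in Con, with 1 higher and 2 lower. Of 8 endothelial markers 6 rose and 2 fell (sums of 67 to 75.4 FPKM in Mod and 64.8 to 76.3 in Con), of 8 microglia markers 1 fell (84.7 to 101 and 104 to 119), and all 4 liver transcripts that could be tested fell. The 7 choroid plexus markers summed to 47.9 to 253 FPKM in Mod and 282 to 697 in Con, so that every Mod library was below every Con library, as for the synthesis sum, although none of the 3 that could be tested was called (1 at an unadjusted p under 0.05 in limma). The 5 erythrocyte markers summed to 109 to 520.1 FPKM in Mod and 108 to 357 in Con, with none of the 5 called (0 at an unadjusted p under 0.05 in limma). Mod replicates 1, 2 and 3 had oligodendrocyte sums inside the Con range (1459, 1539 and 1584 FPKM) and synthesis sums of 169.7, 151 and 163 FPKM, below every Con library. Also below every Con library were their precursor (116.1, 108.7 and 125.6 FPKM), neuron (865.3, 899.5 and 835.1), microglia (94.5, 101.3 and 101.3) and choroid plexus sums. Their astrocyte, endothelial and erythrocyte sums were inside the Con range. Mod replicate 3, the exposed library with liver transcripts near the Con level, lay within the range of the other 4 Mod libraries for 16 of the 19 synthesis genes and 29 of the 35 genes. Within each group 1 library held most of the highest synthesis values: 6-OHG replicate 2 for 16 of 19 genes, Mod replicate 5 for 15 and Con replicate 4 for 14.

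**Figure D4:**
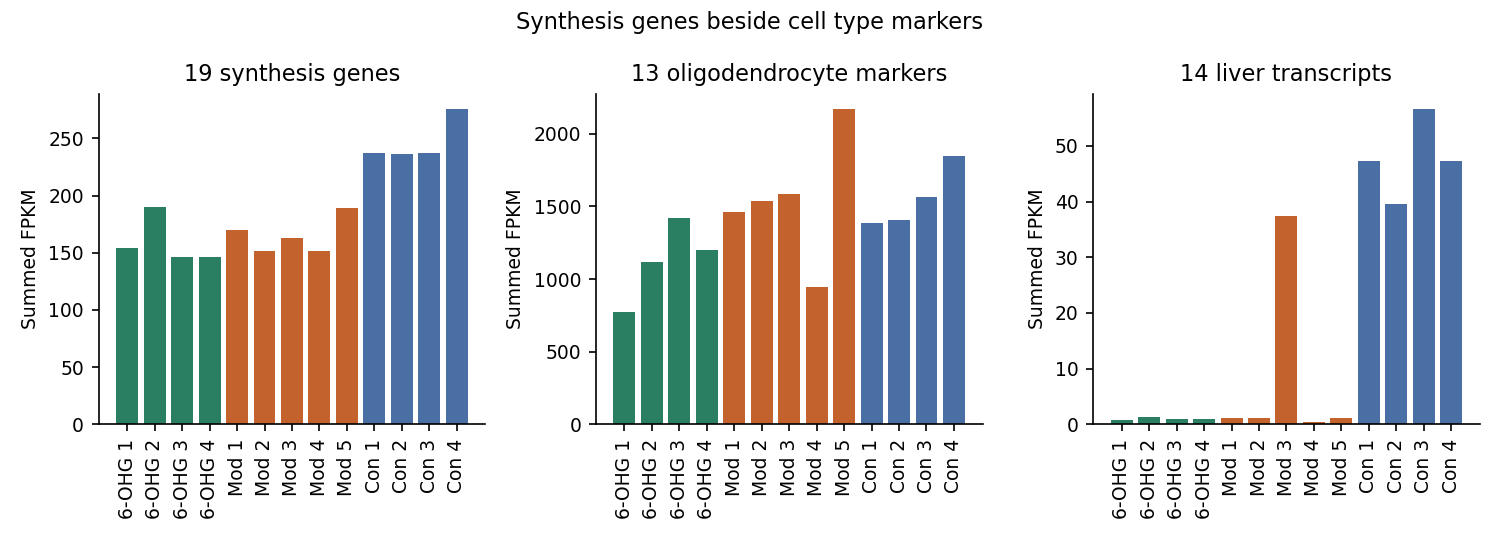
Summed FPKM (y axes, from 0) of the 19 synthesis genes, 13 oligodendrocyte markers and 14 liver transcripts in each library (bars, 6-OHG, then Mod, then Con). The synthesis sum of each exposed library, at most 190.3 FPKM, is below that of each Con library, at least 235.9, while the oligodendrocyte sums overlap and liver transcripts are high in Con and Mod replicate 3.

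Treatment of exposed mice, 6-OHG against Mod, came with changes in few of these genes, and most synthesis enzymes and Srebf2 did not pass the test. Of the 35 genes 3 rose and 4 fell, or 7 in all, where 6.98% of all genes rose and 8.35% fell (15.3% together), so the share of members called was near that of all genes. Groups did not overlap for 2 genes that were higher and 3 that were lower, against 7.6% and 8.34% of all genes. The medians were -0.05 for the 35 and -0.02 for all genes. With FPKM rescaled to equal sums outside the mitochondrial genes, 4 of the 35 rose and 2 fell (median 0.03), and among all genes 1792 rose and 661 fell, against 970 and 1161 as deposited. After quantile normalization 1307 of all genes rose and 965 fell. The calls were not firm. In all, 3 of the 35 were past the threshold after removal of each library's trend with exon length and GC content. Leaving out libraries in turn, 4 were called without Mod replicate 1, without Mod replicate 5 or without 6-OHG replicate 1.

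Srebf2 had 14.9, 14.5, 13.9 and 13.5 FPKM in the 6-OHG libraries, of which the lowest was just below the range of the Mod libraries given above and the others inside it (log2 change -0.0013, SE 0.06, adjusted p = 0.992). Hmgcs1 had 25.8, 37.6, 24.6 and 26.3 FPKM in 6-OHG, where replicate 2 was above every Mod library and the other 3 lay inside the Mod range (log2 change 0.05, SE 0.12, adjusted p = 0.833). The 19 synthesis genes summed to 146 to 190.3 FPKM in 6-OHG and 151 to 189 in Mod, and 1 of them rose and 3 fell, with a median change of -0.10. The oligodendrocyte markers, none of the 13 called (4 at an unadjusted p under 0.05 in limma), summed to 770 to 1417 FPKM in 6-OHG and 947 to 2168 in Mod. All 13 had negative changes, with a median log2 change of -0.33, against -0.02 for all genes. The 5 erythrocyte markers summed to 40.9 to 175.5 FPKM in 6-OHG and 109 to 520.1 in Mod, with 1 lower, 4 at an unadjusted p under 0.05 and a median log2 change of -1.295. Of 8 precursor and 8 microglia markers 1 each fell, and of 8 endothelial markers 1 rose and 1 fell. Changes were negative for 7 of the 8 precursor markers (median -0.34) and for 8 of the 8 microglia markers (median -0.21). The part of these markers in the result was not tested.

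Abca1 and Mylip were the higher genes with the smallest p. Abca1 had 7.44, 8.16, 8.69 and 9.12 FPKM in 6-OHG, all above the Mod libraries (log2 change 0.38, SE 0.07, adjusted p = 0.0052), so that every library in 6-OHG exceeded every one in Mod, and every one in Mod every one in Con. Mylip (ENSMUSG00000038175, chromosome 13 from 45389742 to 45412022), an LXR-induced ubiquitin ligase that removes lipoprotein receptors including LRP8, had 4.58, 4.97, 4.54 and 4.42 FPKM in 6-OHG and 3.67, 3.34, 2.97, 2.44 and 3.25 FPKM in Mod. Its groups did not overlap (log2 change 0.45, SE 0.08, adjusted p = 0.00448). Both genes kept their calls in each fit that left out 1 library. Their calls were lost once length and GC trends were removed alongside a replicate block, a fit that also left out Mod replicate 5. Abca1 then changed by 0.23 (adjusted p = 0.141 in limma) and Mylip by 0.50 (adjusted p = 0.0546 in limma). Hsd17b7, a ketoreductase of the late pathway, had 4.19, 5.42, 4.46 and 3.72 FPKM in 6-OHG and 3.55, 3.32, 3.63, 3.47 and 3.82 FPKM in Mod, with 1 Mod library above the lowest of 6-OHG (log2 change 0.25, SE 0.08, adjusted p = 0.0421). Its call was lost in 11 of the 13 fits that left out 1 library, the exceptions being those without Con replicate 4 and without 6-OHG replicate 4 (adjusted p up to 0.0896).

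Lower with 6-OHG were Pmvk, Mvk, Tm7sf2 and Apoe. Pmvk, phosphomevalonate kinase, had 9.08, 10.05, 9.06 and 8.64 FPKM in 6-OHG and 12.8, 10.8, 13.4, 11.05 and 12.6 FPKM in Mod (log2 change -0.36, SE 0.08, adjusted p = 0.0136). Tm7sf2 had 3.91, 4.14, 3.87 and 3.94 FPKM in 6-OHG, below all Mod libraries and above all Con libraries (log2 change -0.27, SE 0.07, adjusted p = 0.0159). Mvk, mevalonate kinase, had 3.79, 3.82, 3.77 and 3.36 FPKM in 6-OHG and 5.18, 4.88, 4.26, 3.84 and 4.65 FPKM in Mod (log2 change -0.24, SE 0.07, adjusted p = 0.0327). These 3 genes did not overlap between the groups. Apoe had 275, 339, 357 and 314 FPKM in 6-OHG and 414, 356, 404, 382 and 392 FPKM in Mod, with 1 library of 6-OHG above the lowest of Mod (log2 change -0.28, SE 0.08, adjusted p = 0.0385). After the length and GC trend was removed, Pmvk (-0.16, adjusted p = 0.208), Mvk (-0.10, 0.387) and Apoe (-0.10, 0.507) were not called, and Mvk and Apoe also lost their calls without any 1 of several libraries (adjusted p up to 0.0969 and 0.108). The summed exons of Pmvk, Mvk and Apoe span 1713, 2675 and 2138 bases, against a median of 4102.5 for all genes tested. Their GC content was 56.95%, 56.34% and 59.52%, against a median of 49.75%. Length and GC were removed together, and neither was tested alone.

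Exposed and treated mice, 6-OHG against Con, shared the libraries of both comparisons above, so these values are set beside them and are not independent of them. Of the 35 genes 17 fell and 4 rose, where 14.4% of all genes fell and 16.3% rose (30.7% together). Rescaling to equal sums gave 2823 of all genes higher and 1576 lower, against 2270 and 1998 as deposited, with 17 of the 35 lower and 4 higher in that setting too. Groups did not overlap for 17 of the 35 that were lower and 4 that were higher, against 12.5% and 15.6% of all genes. Of the 19 synthesis genes 14 fell and 1 rose, with a median of -0.63, and their mean summed FPKM was 159 in 6-OHG and 246.5 in Con (ratio 0.646). Fdft1 was among those that fell here (log2 change -0.45, SE 0.10, adjusted p = 0.00478), and Hsd17b7 was not (log2 change -0.07, SE 0.08, adjusted p = 0.51). Msmo1 had 6.37, 8.91, 6.27 and 5.66 FPKM in 6-OHG (log2 change -0.96, SE 0.12, adjusted p = 0.000162). Idi1 had 6.88, 10.6, 7.28 and 5.72 FPKM (log2 change -0.79, SE 0.15, adjusted p = 0.00191). For both genes each 6-OHG library was below each Con library, and replicate 2 was the highest of its group. Sqle had 5.49, 8.04, 6.13 and 5.97 FPKM (log2 change -0.78, SE 0.13, adjusted p = 0.000832). Fdps had 5.84, 7.31, 6.25 and 5.21 FPKM (log2 change -0.72, SE 0.08, adjusted p = 9.77e-05). The same separation from Con held for these 2 genes. Srebf2 was lower by 0.79 on the log2 scale (adjusted p = 4.19e-06 in limma), and Abca1 was higher by 0.92, with a mean 2.12 times that of Con (adjusted p = 8.07e-06). Abcg1 had 11.1, 8.74, 9.75 and 9.96 FPKM in 6-OHG (log2 change 0.31, SE 0.08, adjusted p = 0.00954). Lss had 5.39, 6.29, 4.89 and 4.95 FPKM in 6-OHG and 3.99, 4.098, 3.74 and 4.97 FPKM in Con, with 1 Con library inside the 6-OHG range (log2 change 0.30, SE 0.09, adjusted p = 0.021), and lost its call without Con replicate 1 or 3 or 6-OHG replicate 2 (adjusted p up to 0.0608). Mylip, at 3.87, 3.47, 3.45 and 4.17 FPKM in Con, was higher in 6-OHG by 0.25 (0.09 SE, adjusted p = 0.0474), a call lost in 16 of 25 other settings. Npc2, the soluble lysosomal partner of NPC1, fell by 0.46 and Nr1h2 by 0.27, whose call was lost without Con replicate 2 or 4 or 6-OHG replicate 3 or 4 (adjusted p up to 0.0748). The 13 oligodendrocyte markers, with 5 lower and 0 higher, summed to 770 to 1417 FPKM in 6-OHG and 1383 to 1849 in Con. Of the 8 precursor markers 6 fell, of 8 microglia markers 6 fell, of 8 endothelial markers 5 rose and 2 fell, and of 5 erythrocyte markers 1 fell (40.9 to 175.5 FPKM in 6-OHG and 108 to 357 in Con). The choroid plexus sums overlapped between 6-OHG (4.61 to 362) and Con (282 to 697).

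A further list of 42 tested genes of sterol handling, which holds other enzymes, receptors, oxysterol and lipoprotein genes, gave the wider pathway. In Mod against Con 9 fell and 3 rose (median -0.01), in 6-OHG against Mod 2 fell and 6 rose (0.01), and in 6-OHG against Con 8 fell and 6 rose (-0.01). The shares of all genes that fell and rose were those given above for each comparison. Pltp, a phospholipid transfer protein of lipoproteins, averaged 6.83 ± 1.18 FPKM in Mod and 16.4 ± 2.28 FPKM in Con (log2 change -1.15, SE 0.13, adjusted p = 6.71e-05), and 6.16 ± 1.06 in 6-OHG. Abca7, a lipid transporter of the ABCA family, averaged 2.204 ± 0.171 FPKM in Mod and 3.44 ± 0.375 FPKM in Con (log2 change -0.47, SE 0.07, adjusted p = 0.00057). Among other ABC lipid transporters, named after their values were seen, Abcg4 averaged 9.85 ± 0.965 FPKM in Mod and 11.4 ± 1.05 FPKM in Con (log2 change -0.20, SE 0.09, adjusted p = 0.123), and fell by 0.33 in 6-OHG against Con (adjusted p = 0.0167 in limma). Abca2 averaged 35.7 ± 2.98 FPKM in Mod and 36.02 ± 5.06 FPKM in Con (adjusted p = 0.966 in limma). Abca5 was also named after its values were seen. It averaged 5.045 ± 0.333 FPKM in Mod and 5.165 ± 0.63 FPKM in Con (adjusted p = 0.888 in limma). In 6-OHG it averaged 7.112 ± 1.33 FPKM, with every library above those of Mod and Con. Abca5 rose there by 0.41 against Mod (adjusted p = 0.0144 in limma) and by 0.39 against Con (adjusted p = 0.0133 in limma). Lcat, which esterifies cholesterol in lipoproteins, stood at 20.2, 24.6, 22.4, 13.8 and 16.7 FPKM in Mod and 9.704, 10.5, 9.94 and 10.6 FPKM in Con, all Mod libraries being higher (log2 change 0.85, SE 0.13, adjusted p = 0.000659). With 6-OHG it had 11.7, 10.4, 10.5 and 9.63 FPKM, all below the Mod libraries (log2 change -0.81, SE 0.13, adjusted p = 0.00222). Pdss1, which makes the tail of coenzyme Q from the same isoprenoids, averaged 4.32 ± 0.401 FPKM in 6-OHG and 2.61 ± 0.270 FPKM in Con (log2 change 0.56, SE 0.08, adjusted p = 0.000263).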

How the data were processed

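Brain RNA was extracted with Trizol and read as pairs of 150 bases, per the labels. Values are FPKM as the authors deposited them. The submitters' processing notes name the builds GRCm38 and mm10 and, without saying what each did, featureCounts 1.5.0-p3, StringTie 2.1.6 and HISAT2 2.2.1, besides cutadapt 1.9 and FastQC. Annotation release, strand setting and filters are not given in the sources used here. Read totals are not given either, and the low values showed no common step (2.59% to 5.45% of them lay at the commonest), so counts were not recovered and no count test was run. Symbols, coordinates and exon lengths came from GENCODE M21 (GRCm38), with 37499 of 37636 IDs matched. All 13 value columns were used.

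The table as log2(FPKM + 1) was fitted in limma 3.58.1 (R 4.3.3) with 1 mean per group and a trend on the mean, over 13905 genes averaging 1 FPKM or more. P-values were adjusted over all of them by the method of Benjamini and Hochberg. The procedure was tested on simulated data. The members, roles and further lists were chosen with earlier results of these data known. Values in every library are given for the 8 members with the smallest p in Mod against Con or in 6-OHG against Mod and for members called outside synthesis; genes named beyond this were chosen after their values were seen. Of the further list up to 4 genes per comparison are named, by smallest p. Replicate numbers did not pair the libraries. Figures used matplotlib 3.10.9 under Python 3.11.15. The closing section gives the other settings.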

Additional observations from a re-analysis of the deposited data

Results flagged for a closer look

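Of 105 sets of values (35 genes in 3 groups), 10 held 1 library set apart from the others of its group. Chance alone gives about 1 in 20. A library was flagged where its gap to the next value took up most of the range of its group on log2(FPKM + 1). A small difference can therefore be flagged where the other libraries lie close together, as for Hmgcs1 in Con. Con replicate 4 stood apart for 4 genes: Acat2 at 21.7 FPKM against 15.4 to 16.3 in the other Con libraries, Hmgcs1 at 58.3 against 55.7 to 55.8, Idi1 at 15.9 against 12.8 to 13.2, and Lrp8, the 1 gene of these where it was low, at 4.97 against 6.52 to 6.84. 6-OHG replicate 2 stood apart for Hmgcs1, at 37.6 FPKM against 24.6 to 26.3, and for Insig1, at 22.9 against 10.3 to 11.6. Single cases were Mvk in 6-OHG replicate 4 (3.36 against 3.77 to 3.82 FPKM), Mvd in 6-OHG replicate 1 (5.55 against 4.43 to 4.58), Sc5d in Mod replicate 5 (11 against 7.65 to 8.15) and Nr1h2 in Mod replicate 4 (7.14 against 8.27 to 8.64).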

How the results depend on the processing

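The count of the 35 genes called in Mod against Con was 20, and 16 to 23 over 13 other settings and 18 to 22 over the fits that left out 1 library. That of 6-OHG against Con was 21, and 17 to 23 and 19 to 21. The synthesis genes lower numbered 14 in Mod against Con (11 to 15 and 14 to 15) and 14 in 6-OHG against Con (12 to 14 and 14 to 14). Without the 2 libraries least like their groups these counts were 20, 21, 14 and 14. The lowest counts of the other settings, 16, 17, 11 and 12, came with a mean of at least 5 FPKM. Only 28 of the members and 14 synthesis genes were tested there. In Mod against Con 17 of the 20 called genes were called in every setting in which they were tested, and in 6-OHG against Con 18 of 21; no called gene changed sign. In 6-OHG against Mod the count of 7 became 4 with no filter, 3 with a mean of at least 5 FPKM (28 genes tested), 4 with only the 2 groups compared, 2 with the replicate block, 3 without the length and GC trend, and 0 without that trend and with the block, where 7 had an unadjusted p under 0.05 in limma; leaving out 1 library gave 4 to 7, and leaving out the 2 above gave 10 (2 higher, 8 lower). The cause was not tested. Genes called in all, 3304 of 13905 tested in Mod against Con, were 2061 of 7648 tested at 5 FPKM. They were 2043 with the block and 2136 with block and trend removal. In 6-OHG against Mod, 2131 became 846 with the block, 995 without the trend, 74 with both and 1357 without 6-OHG replicate 4. In 6-OHG against Con, 4268 of 13905 became 2663 of 7648 tested at 5 FPKM. Rescaling to equal sums gave 2823 higher and 1576 lower against 2270 and 1998. Same-numbered libraries of different groups deviated together at r over 0.1 in 3 of 12 pairs (-0.483 to 0.346), so the block marks a shared number only. Differently numbered libraries did so in 18 of 44 pairs (-0.492 to 0.651). Con replicate 4 and 6-OHG replicate 2 had an r of 0.651. Mod replicate 5 had 0.418 with 6-OHG replicate 2 and 0.367 with Con replicate 4. These libraries held most of the highest synthesis values of their groups. Fits with the block also left out Mod replicate 5, so their counts reflect both changes. Without that library alone, 4 were called in 6-OHG against Mod. Read totals are unknown, which leaves the precision of the lowest genes unstated.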

Other observations

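Fatty acid synthesis genes, which SREBP-1 is known to drive, were partly lower as well. Of 15 tested 6 fell and 2 rose in Mod against Con, with a median log2 change of -0.25, against 9.81% and 14% of all genes. Fasn, fatty acid synthase, averaged 15.7 ± 1.44 FPKM in Mod and 23.8 ± 0.920 FPKM in Con (log2 change -0.57, SE 0.07, adjusted p = 0.000176), with no overlap between the groups. Elovl6, a fatty acid elongase, averaged 5.05 ± 0.343 and 9.81 ± 1.53 FPKM (log2 change -0.83, SE 0.12, adjusted p = 0.000534), and Mid1ip1, which activates acetyl-CoA carboxylase, 18.8 ± 2.23 and 33.3 ± 6.50 FPKM (log2 change -0.78, SE 0.15, adjusted p = 0.00287). Me1, the malic enzyme that supplies NADPH, was higher, at 25.5 ± 1.12 FPKM in Mod and 17.8 ± 1.87 FPKM in Con (log2 change 0.50, SE 0.07, adjusted p = 0.000284). In 6-OHG against Mod 1 rose and 1 fell (Fasn 0.24, Pcyt2 -0.35), near the 6.98% and 8.35% of all genes. In 6-OHG against Con 7 fell and 2 rose (median -0.33), against 14.4% and 16.3% of all genes.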
